A study of Mus musculus with 32 samples.

Results

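Reln, Cpn1, Hepacam2 and Kcnk1 were followed across 32 lymphomas of Eµ-myc mice, as 4 of the 11228 genes tested. They were chosen on measured values: ranked by their standard deviation (SD) over the tumours, they stood at places 13, 15, 17 and 20 among the 25 most variable genes, and they are neither salivary nor immunoglobulin genes. On the array they have 7 of 45101 probe sets (short stretches of a transcript read by several probes), each annotated to the one gene alone, and the probe set with the highest mean stands for the gene. Every animal carried the Eµ-myc transgene, in which the immunoglobulin heavy chain enhancer drives Myc in cells of the B lineage. The animals were killed when they showed lymphoma or looked ill, and no treatment is named. Tissue or a suspension of dissociated cells was the RNA source, with no record of the choice for each tumour. There is 1 array for each tumour, all tumours form 1 group, and neither control animals nor ages are given in the sources used here. Nothing states whether tumours shared a mouse, so p-values measure the spread between these arrays, part of which may be technical.

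Reelin, the product of Reln, is a very large glycoprotein secreted into the extracellular matrix. It binds the receptors Vldlr and Lrp8 on migrating neurons, and the adaptor Dab1 is then phosphorylated by the kinases Fyn and Src. Cpn1 encodes the catalytic subunit of carboxypeptidase N, a plasma enzyme made mainly by the liver that trims a terminal arginine or lysine from kinins and complement anaphylatoxins and is held together by Cpn2. Hepacam2 encodes a membrane protein of the immunoglobulin superfamily that is modified by tankyrase and acts in centrosome maturation at mitosis. Kcnk1 encodes TWIK-1, a potassium channel subunit with a pair of pore domains.

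The promoters are shown because 3 of the 4 genes, Reln, Cpn1 and Hepacam2, moved together over the tumours while Kcnk1 was not shown to move with them. Each sequence covers 250 bases before to 50 bases after the annotated start in RefSeq, assembly GRCm38.p6, and is printed 5′ to 3′ on the gene's strand. Capitals mark matches, on either strand, to 5 motifs. CACGTG is the E-box that Myc and Max bind, and CAGGTG is an E-box of E proteins and zinc finger repressors. CCGGAAG is bound by ETS factors, TATAAA is the core of a TATA box and CCAAT is bound by NF-Y. Reln lies at chr5:22344656-22344955 on the minus strand, Cpn1 at chr19:43986471-43986770 on the minus strand, Hepacam2 at chr6:3494449-3494748 on the minus strand and Kcnk1 at chr8:125994852-125995151 on the plus strand.
Reln: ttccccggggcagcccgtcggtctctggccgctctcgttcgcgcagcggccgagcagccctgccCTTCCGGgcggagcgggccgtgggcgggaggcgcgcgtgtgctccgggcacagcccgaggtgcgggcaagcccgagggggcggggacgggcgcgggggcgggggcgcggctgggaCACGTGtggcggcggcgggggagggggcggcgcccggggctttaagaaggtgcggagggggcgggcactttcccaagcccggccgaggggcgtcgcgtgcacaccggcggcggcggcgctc
Cpn1: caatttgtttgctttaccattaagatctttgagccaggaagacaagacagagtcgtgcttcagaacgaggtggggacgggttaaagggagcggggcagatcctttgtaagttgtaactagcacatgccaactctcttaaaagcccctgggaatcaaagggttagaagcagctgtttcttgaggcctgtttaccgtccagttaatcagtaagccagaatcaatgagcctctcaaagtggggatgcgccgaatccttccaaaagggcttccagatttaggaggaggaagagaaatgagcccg
Hepacam2: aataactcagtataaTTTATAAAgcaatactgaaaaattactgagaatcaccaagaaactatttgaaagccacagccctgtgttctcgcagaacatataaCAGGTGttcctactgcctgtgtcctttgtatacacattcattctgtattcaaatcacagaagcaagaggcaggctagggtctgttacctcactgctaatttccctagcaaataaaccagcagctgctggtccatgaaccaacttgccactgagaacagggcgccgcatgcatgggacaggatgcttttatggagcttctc
Kcnk1: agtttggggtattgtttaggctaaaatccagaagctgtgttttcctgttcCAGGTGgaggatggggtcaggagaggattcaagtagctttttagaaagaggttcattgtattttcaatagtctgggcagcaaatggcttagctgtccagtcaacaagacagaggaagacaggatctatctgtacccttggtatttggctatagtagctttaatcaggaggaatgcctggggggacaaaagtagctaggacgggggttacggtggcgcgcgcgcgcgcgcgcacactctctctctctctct

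The 4 windows differ in base composition. The Reln window is 80.67% G and C with 47 CpG dinucleotides, against a median of 52.67% and 7 CpGs over 32851 RefSeq promoters of the same length, of which 90% have at most 31 CpGs. The other windows are 48.0% (Cpn1, 8 CpGs), 43.0% (Hepacam2, 3 CpGs) and 49.0% (Kcnk1, 10 CpGs) G and C. Reln holds CACGTG at position -71 from the start, a motif in 7.15% of all windows, and CCGGAAG, on the other strand, at -186, a motif in 8.858%. CAGGTG, in 20.21% of all windows, stands at -150 in Hepacam2 and at -200 in Kcnk1. Hepacam2 also holds TATAAA matches at -235 and -233, which overlap on opposite strands, and 13.62% of windows hold that motif. The Cpn1 window has none of the 5 motifs, and none of the 4 windows has CCAAT, found in 37.41%. The members that moved together share none of these motifs, which is a statement about these letters in these windows only.

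Each of the 4 genes ran from a dim to a bright signal over the tumours. Values are log2 expression values, on which 1 unit is a doubling, and the array medians lay between 5.72 and 5.80. Reln ran from 5.31 in tumour 5 through a median of 11.80 to 13.27 in tumour 22 (SD 2.64, n = 32). Most tumours were thus bright in Reln. Cpn1 ran from 3.57 in tumour 18 through a median of 8.17 to 10.79 in tumour 1 (SD 2.52, n = 32). Hepacam2 ran from 3.73 in tumour 12 through a median of 9.42 to 11.78 in tumour 29 (SD 2.44, n = 32). Kcnk1 ran from 4.32 in tumour 2 through a median of 9.21 to 11.25 in tumour 29 (SD 2.37, n = 32). The choice of the genes fixed these spreads, so they are given as a description. Just inside the 25 stood Gm6958 with an SD of 2.23, and just outside stood Tmem255a with 2.15.

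The levels formed no separate clusters by the rule used here, a gap of at least 25% of the range with at least 3 tumours on each side. The widest such gap of Reln took 23.5% of its range, with 10 tumours at or below 8.76 and 22 at or above 10.63. The widest such gap of Cpn1 took 22.1%, with 14 tumours at or below 6.14 and 18 at or above 7.74. Those of Hepacam2 and Kcnk1 took 13.9% and 12.4%, and tumour 29 alone stood 15.9% of the range above the next in Hepacam2. In bulk tumour RNA, fewer cells that express a gene and less of its RNA in each cell cannot be told apart.

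The other probe sets of the same genes gave a narrower range. The second Kcnk1 probe set (SD 1.78) followed the first with r = 0.98, and the second of Cpn1 (SD 1.33) ran from 4.60 to 9.58. The second of Reln was dim throughout, from 2.68 to 4.47 (SD 0.42), and followed the bright one with r = 0.77. Hepacam2 has a single probe set, of a type that can also bind related transcripts.

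**Figure D1:**
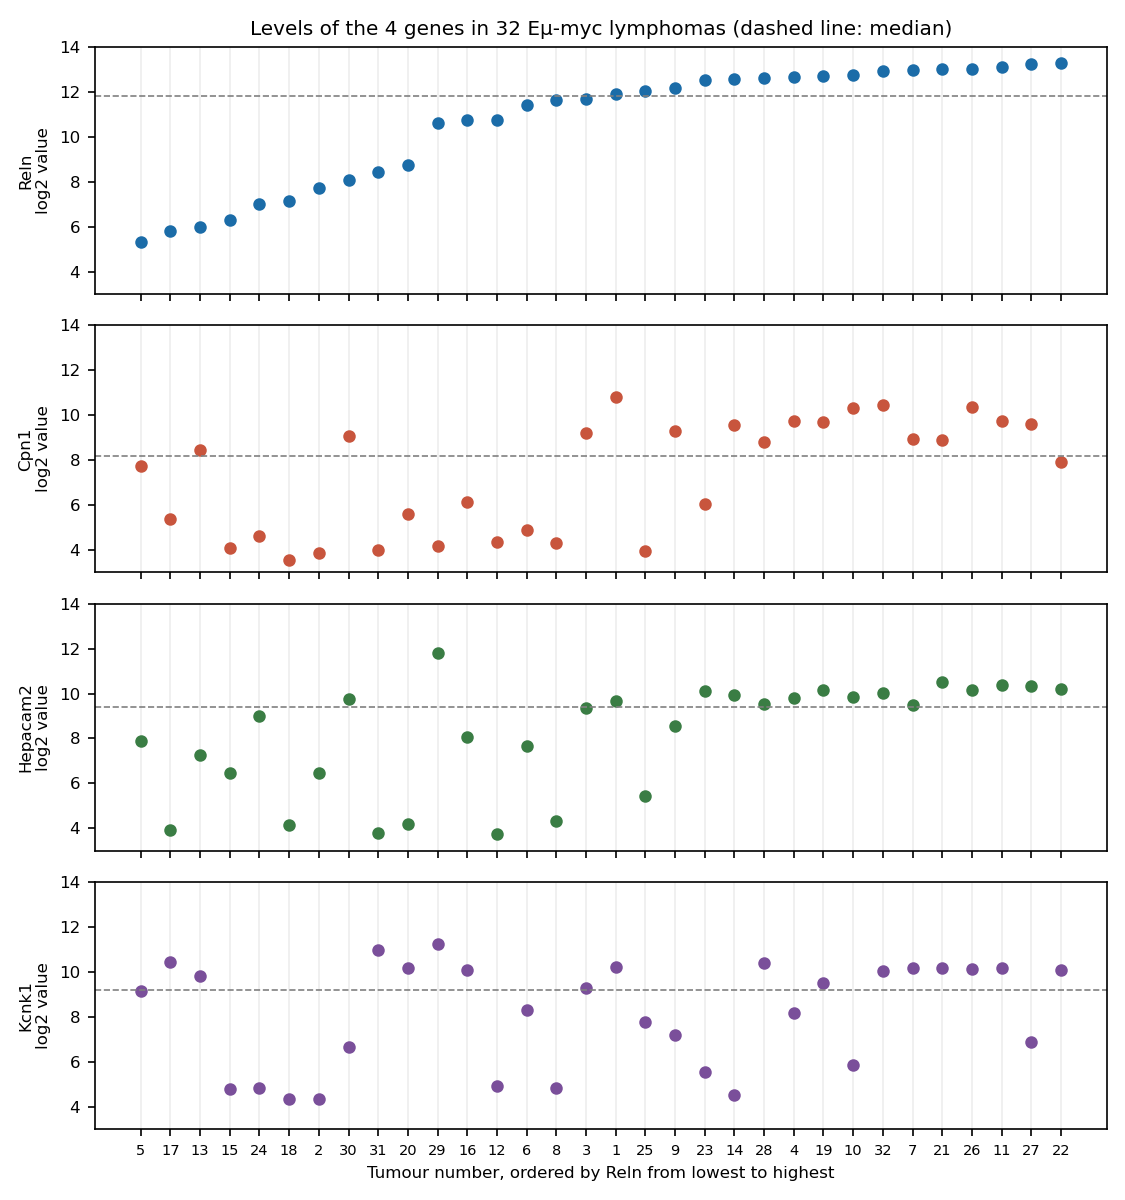
Log2 values of Reln, Cpn1, Hepacam2 and Kcnk1 (panels from top to bottom) in each of the 32 tumours, which stand in the same order on every horizontal axis, from the lowest to the highest Reln. Each point is 1 array and dashed lines are medians; the tumours with the most Reln are also bright in Hepacam2, and Kcnk1 is spread over its whole range on both sides.

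Most tumours were high in some of the 4 genes and low in others. Split at the middle of each gene's own range, 11 of 32 tumours were high in all 4 genes and 3, tumours 2, 15 and 18, were low in all 4. Reln, Cpn1 and Hepacam2 were all high in 15 tumours and all low in 6. Tumour 29 had the highest Hepacam2 and the highest Kcnk1 but was low in Cpn1. Tumours 5, 13 and 30 were high in Cpn1 with low Reln, and tumours 6, 8, 12, 16, 23, 25 and 29 the other way round.

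Reln, Cpn1 and Hepacam2 rose together over the tumours, and Kcnk1 was not shown to rise with any of them. Cpn1 and Hepacam2 had the highest Pearson's r, 0.70 (Spearman's rho 0.65, n = 32, two-sided permutation test with 100000 resamples, p = 2e-05, adjusted p = 0.0002 over the 10 relations computed). Reln and Hepacam2 had r = 0.56 (permutation p = 0.00084, adjusted p = 0.0042) but the highest rank correlation (rho 0.72, permutation adjusted p = 0.0003). Reln and Cpn1 had r = 0.54 (rho 0.64, permutation p = 0.00185, adjusted p = 0.00617). Of 32 tumours, 17 were high and 10 low in both Cpn1 and Hepacam2 by the middle of each range. Another 4 had high Hepacam2 with low Cpn1, and 1, tumour 13, the reverse. Leaving out the 2 tumours whose value of the first gene lay farthest from its median, the 3 values of r were 0.67, 0.55 and 0.59 in turn.

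Kcnk1 had r = 0.34 with Cpn1 (rho 0.23, permutation adjusted p = 0.148), 0.25 with Hepacam2 (rho 0.23, adjusted p = 0.327) and 0.18 with Reln (rho 0.19, adjusted p = 0.429). None of the 3 passed, which does not show that Kcnk1 is unrelated to them. In the model fitted over all genes, described next, Hepacam2 rose with Cpn1 (adjusted p = 0.00115) and Reln with both Cpn1 (0.0285) and Hepacam2 (0.0276). With Reln as the predictor, where fewer genes passed, Hepacam2 (adjusted p = 0.0661) and Cpn1 (0.0929) did not pass. RNA quality, taken as how far the 3′ probe sets of the control genes Gapdh and Actb exceed their 5′ ones, had r between -0.01 and 0.20 with the 4 genes, and the smallest permutation adjusted p was 0.429.

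**Figure D2:**
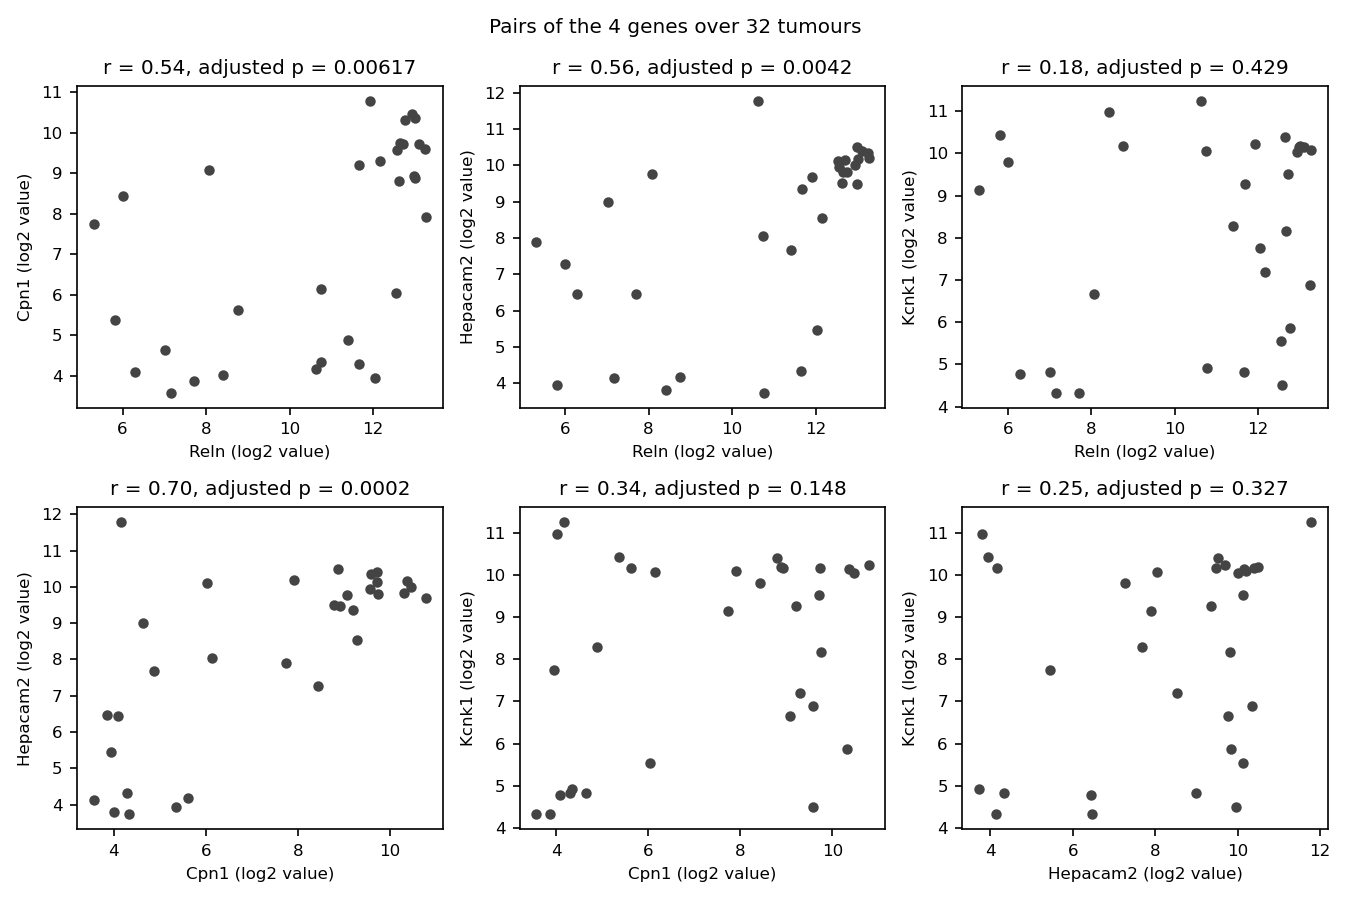
Log2 values of each pair of the 4 genes, 1 point per tumour (n = 32), with Pearson's r and the permutation p adjusted over 10 relations above each panel. Points rise from lower left to upper right for Reln, Cpn1 and Hepacam2, with the highest r for Cpn1 and Hepacam2 (0.70), and fill the panels with Kcnk1 more evenly.

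To ask which other genes go with each of the 4, every other tested gene was fitted on the log2 level of Reln, Cpn1, Hepacam2 or Kcnk1 with limma, over the same 32 tumours. The slope is the change of a gene, in log2 units, for each doubling of the gene it is set against. A gene is said to rise or fall with it where the adjusted p (Benjamini-Hochberg, over all 11227 genes) is under 0.05. Because all 4 fits use the same tumours, their gene lists are not independent of each other.

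Few genes passed the adjusted threshold with Reln, and the closest was Mast4, a microtubule-associated kinase. Of 11227 genes, 26 (0.232%) rose and 9 (0.0802%) fell with Reln. At an unadjusted limma p under 0.05 there were 1670 genes with Reln, against 1641 with Hepacam2. Mast4 ran from 5.25 through a median of 6.65 to 8.88 and rose by 0.33 ± 0.05 (SE) per doubling of Reln (limma adjusted p = 0.000628, r = 0.78, n = 32). Tumours high in Reln were high in Mast4 in nearly the same order (rho 0.85). Next by size of the test statistic came Bckdhb, a subunit of the dehydrogenase that breaks down branched-chain amino acids (slope 0.09, r = 0.71). Slc25a23, a mitochondrial carrier, had a slope of 0.21 and Hsd17b13, an enzyme of lipid droplets, one of 0.48. Map2, the microtubule protein used to mark neurons, rose by 0.32 ± 0.06 (limma adjusted p = 0.0138). Zfp703, Usp46, a deubiquitinase, Bambi, a decoy receptor that dampens TGF-beta signals, Zfp661 and Foxf2, a forkhead factor, completed the 10 closest rising genes, with slopes from 0.08 to 0.37.

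Among the genes that fell with Reln, Nlrx1, a mitochondrial protein of innate immunity, had a slope of -0.14 (limma adjusted p = 0.0138, r = -0.68). Sh3bp1 had the same slope of -0.14, and Pcgf5, a Polycomb protein, -0.15. Bcl2l2, the survival protein Bcl-w, fell by 0.16 per doubling, the prefoldin subunit Pfdn5 by 0.06 and Mtmr12 by 0.08. The counts for Reln are unstable: leaving out 1 tumour at a time gave 14 to 71 rising and 3 to 42 falling genes, with both highest counts without tumour 5, which had the least Reln. Without the 11 tumours with high Bpifa2, a salivary gland gene, 190 rose and 116 fell over the other 21.

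Of 13 tested genes of the reelin pathway, limma called 0 with Reln (3 at an unadjusted p under 0.05), where 0.312% of all genes were called, and their median slope was -0.02 against 0.00 for all genes. Src, the kinase that phosphorylates Dab1, came closest to the threshold, with a slope of -0.12 ± 0.03 (limma adjusted p = 0.0508), followed by the adaptor Crk with 0.05 ± 0.01 (adjusted p = 0.0894). The receptor Lrp8, which ran from 5.50 to 8.07, had a slope of -0.10 (adjusted p = 0.231). The other receptor, Vldlr, and Dab1 itself had mean signals under the median of all probe sets and were left out of the fit, as were the reelin-cleaving proteases Adamts3 and Adamts4. Their highest values in any tumour were 6.89 for Vldlr and 5.60 for Dab1. Of the 10 neuronal marker genes, 9 were dim and Map2 alone was tested; Snap25, a synaptic protein, reached at most 3.12. Of the dim ones, the tubulin gene Tubb3 reached 8.26 and Stmn2 6.24 in their highest tumours.

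More genes went with Cpn1, led by Plxdc1, a transmembrane protein with a plexin-like domain. Of 11227 genes, 405 (3.61%) rose and 197 (1.75%) fell with Cpn1. Plxdc1 ran from 5.97 through 7.36 to 8.37 and rose by 0.24 ± 0.03 per doubling of Cpn1 (limma adjusted p = 6.84e-06, r = 0.84). Evi5, a regulator of cytokinesis, rose by 0.19 ± 0.02 (limma adjusted p = 1.05e-05, r = 0.83). The steepest of the closest 10 was Apobec2, a cytidine deaminase family member of muscle, which had a lowest value of 4.18, a median of 8.42 and a slope of 0.63 ± 0.08. Mrps12 of the mitochondrial ribosome (0.18), Kctd14 (0.45), Cuedc1 (0.17), Erlin1 of the endoplasmic reticulum (0.14), Ahnak (0.31), Hsd17b13 (0.56) and Fkbp11, a folding enzyme of secretory cells (0.32), followed.

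The gene that fell most closely with Cpn1 was Ptk2b, the focal adhesion family kinase Pyk2, with a slope of -0.13 ± 0.02 (limma adjusted p = 9.22e-05, r = -0.78). Plekho1 (-0.15), Srgn, the core of the granule proteoglycan serglycin (-0.17), Pxk (-0.08), Ipcef1 (-0.44) and Dap (-0.26) followed. The 6 genes span a wide range of slopes because the order is by test statistic. Without tumour 30, where Cpn1 was high and Reln low, 706 rose and 338 fell; without each other tumour both counts stayed within 1.5 times. With the precursor and mature B cell scores as covariates 73 rose and 21 fell, and a fit that gives less weight to outlying tumours found 975 and 486.

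Genes of early B cell development fell with Cpn1 in part. In the precursor B cell list 14 genes were tested and 3 fell, where 1.75% of all genes did: Lef1, a Wnt pathway factor of pro-B cells, by 0.47 ± 0.08 (limma adjusted p = 0.00115), the interleukin 7 receptor chain Il7r by 0.42 ± 0.09 (adjusted p = 0.00332), and Bst1 by 0.30 ± 0.08 (adjusted p = 0.0307). Il7r ran from 5.93 through 8.06 to 12.7 over the tumours, so the change with Cpn1 is part of a wide range. The surrogate light chain genes Vpreb1 (slope -0.39, adjusted p = 0.0926) and Igll1 (-0.25, adjusted p = 0.208) did not pass, and the recombinase genes Rag1 and Rag2 had slopes of 0.02 and 0.03. The list's median slope was -0.11, against 0.01 over all genes, and 0 of its genes rose. With tumours 2 and 24 left out, which had the highest T cell scores, 7 of the 14 fell, and with the other Cpn1 probe set 2 did. With the precursor and mature B cell scores as covariates limma called 0 of them (1355 of all genes at an unadjusted p under 0.05). The precursor score is the mean standardised value of these same 14 genes, so that fit cannot tell whether they go with Cpn1.

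Of the 11 tested genes that B cells share through their development, Blnk, the adaptor of B cell receptor signalling, fell with Cpn1 (slope -0.09, limma adjusted p = 0.00285). Among 8 plasma cell genes Fkbp11 rose and Sdc1, the plasma cell surface proteoglycan syndecan-1, fell by 0.28 (adjusted p = 0.0153). Single genes of other lists also passed, 1 of 9 p53 genes and 1 of 10 NF-kB genes, where 5.36% of all genes did: the p53 antagonist Mdm2 (-0.04, adjusted p = 0.0251) and the NF-kB inhibitor Nfkbie (-0.17, adjusted p = 0.027) fell, and Map2 (0.27, adjusted p = 0.0234) rose. None of Mdm2, Nfkbie and Map2 passed without tumours 2 and 24 or with the B cell scores as covariates. Mdm2 also did not pass with averaged probe sets, with the other Cpn1 probe set or without the 11 tumours with high Bpifa2.

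Most enzymes and receptors that work around carboxypeptidase N had a dim signal. Of the list of 22 carboxypeptidase, kinin and anaphylatoxin genes, 7 were bright enough to test and limma called 0 with Cpn1 (2 at an unadjusted p under 0.05), where 5.36% of all genes were called. Their median slope was -0.01. The closest were the membrane-bound Cpm (-0.18, limma adjusted p = 0.116) and the anaphylatoxin receptor C3ar1 (0.11, adjusted p = 0.144). Cpn2, the partner subunit of the enzyme, was dim, with at most 4.72 in any tumour, and the kinin receptors Bdkrb1 and Bdkrb2 reached at most 5.19 and 4.24. Liver markers were mostly dim as well: of 10 liver genes 6 were dim, with albumin (Alb) at most 5.03, and the 3 tested (Apoa2, Ttr and Cyp2e1) did not pass with Cpn1, 0 of them at an unadjusted p under 0.05 either.

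Of 13 tested potassium channel genes, 2 rose with Cpn1, where 3.61% of all genes did. The calcium-activated channel Kcnn4, known in activated lymphocytes, rose by 0.24 ± 0.05 per doubling of Cpn1 (limma adjusted p = 0.00229), and the pore-domain relative Kcnk5 by 0.13 ± 0.03 (adjusted p = 0.00483). Against Kcnk1 the same genes had slopes of 0.13 (adjusted p = 0.179) and 0.09 (adjusted p = 0.115). Whether the slopes on Cpn1 and Kcnk1 differ was not tested.

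The gene that went most closely with Hepacam2 was Cysltr1, a receptor for cysteinyl leukotrienes. Of 11227 genes, 172 (1.53%) rose and 91 (0.811%) fell with Hepacam2. Cysltr1 ran from 5.07 through 6.60 to 8.56 and rose by 0.39 ± 0.04 per doubling (limma adjusted p = 2.43e-06, r = 0.85, rho 0.92). Fcgr2b, the inhibitory Fc receptor of B cells, ran from 9.17 through 11.1 to 12.2 and rose by 0.25 ± 0.03 (adjusted p = 3.52e-05, r = 0.81). Tumours with more Hepacam2 had more of both receptors. The next 8 were Sorcs2 of the sortilin family (0.35), Prxl2c (0.15), the biotin ligase Hlcs (0.24), Foxf2 (0.46), Evi5 (0.18), the crosslink repair nuclease Dclre1a (0.16), Entpd6 (0.10) and the glucose-6-phosphate transporter Slc37a4 (0.10).

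Falling genes were led by Zfp704 with a slope of -0.36 ± 0.05 (limma adjusted p = 9.7e-05, r = -0.79) and Marcksl1, an actin-binding protein kinase C substrate, with -0.42 ± 0.06 (adjusted p = 0.000101). Dap (-0.29), Lef1 (-0.51), Klhdc2 (-0.15) and Cnksr3 (-0.33) followed. Lef1 ran from 6.26 through 8.17 to 11.4 over the tumours. Of the 14 tested precursor B cell genes, 2 fell with Hepacam2, Lef1 and Bst1 (-0.32, adjusted p = 0.0441), where 0.811% of all genes fell, and 0 rose. Bst1 no longer passed in 19 of the 32 fits that left out 1 tumour. Il7r had a slope of -0.23 (adjusted p = 0.319) and Vpreb1 of -0.48 (adjusted p = 0.0563), and the median slope of the list was -0.17 against 0.00 over all genes. Without tumour 29, where Hepacam2 was highest, 154 genes fell, and 163 fell without both tumours 2 and 24. With the precursor and mature B cell scores as covariates 47 rose and 22 fell, and the outlier-resistant fit found 508 and 329.

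The genes of centrosome and spindle pole maturation had small slopes on Hepacam2. Of 13 tested, limma called 0, and 0 had an unadjusted p under 0.05, where 2.34% of all genes were called, and the slopes lay close to 0: 0.01 for the tankyrase gene Tnks, -0.01 for Tnks2, -0.01 for the scaffold Pcnt, 0.02 for Cep192 and -0.03 for the gamma-tubulin gene Tubg1. The mitotic kinases Aurka and Plk1 had slopes of -0.01 and 0.01. The relative Hepacam was dim, at most 4.09. Elsewhere in the lists, the carboxypeptidase Cpm, 1 of 7 tested, fell with Hepacam2 by 0.30 ± 0.06 (limma adjusted p = 0.00448). Of 13 potassium channel genes Kcnn4 alone rose (0.21, adjusted p = 0.026), and of 8 plasma cell genes Fkbp11 alone (0.28, adjusted p = 0.00647). Map2, the only neuronal gene tested, rose too (0.33, adjusted p = 0.0051). Kcnn4 lost the call in 4 of the 32 fits that left out 1 tumour, and Cpm, Fkbp11 and Map2 in 0. With the precursor and mature B cell scores as covariates Cpm, Kcnn4, Fkbp11 and Map2 did not pass. Without the tumours with high Bpifa2, Cpm and Kcnn4 did not pass, and Fkbp11 and Map2 did.

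Tumours high in Kcnk1 had lower levels of 7 mature B cell genes, 4 of them for class II antigen presentation, and of 6 NF-kB genes, and higher levels of the kinase gene Lmtk2 and the mitochondrial enzymes Prodh and Idh2. Of 11227 genes, 578 (5.15%) rose and 442 (3.94%) fell with Kcnk1. Lmtk2, a kinase of endosomal transport, ran from 8.29 through 9.61 to 10.7 and rose by 0.26 ± 0.03 per doubling (limma adjusted p = 8.64e-06, r = 0.84). Prodh, the first enzyme of proline breakdown, ran from 6.11 through 8.49 to 10.4 and rose by 0.32 ± 0.04 (adjusted p = 1.32e-05). Their rho values were 0.71 and 0.85. The mitochondrial enzymes Idh2 (0.26), Pccb of propionate metabolism (0.07) and Ak3 (0.12) were among the 10 closest, with the autophagy gene Atg9b (0.22), Jcad (0.28), the ribosomal RNA processing gene Imp3 (0.08), Inpp5a (0.23) and the activin receptor Acvr2b (0.25).

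Cd52, a glycoprotein on the surface of lymphocytes, fell most closely with Kcnk1, by 0.40 ± 0.05 per doubling (limma adjusted p = 1.32e-05, r = -0.82). Its lowest value was 8.01 and its median 10.8. Btg1, a gene that restrains proliferation, had a slope of -0.25, Plekhg2 -0.17, Mef2c, a transcription factor of B cells, -0.24, H2-DMb2, which helps load peptides on class II molecules, -0.38, and Limd2 -0.19.

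Of 12 tested mature B cell genes, 7 fell with Kcnk1, where 3.94% of all genes did, and 0 rose. They included the class II genes H2-Ab1 (slope -0.21 ± 0.04, limma adjusted p = 0.00104), H2-Aa (-0.20 ± 0.04, adjusted p = 0.00315), their chaperone Cd74 (-0.28 ± 0.06, adjusted p = 0.00383) and their transactivator Ciita (-0.24 ± 0.05, adjusted p = 0.00637). The B cell surface genes Fcmr (-0.45), Ms4a1, which encodes CD20 (-0.39), and Cd22 (-0.14) fell as well. Cd74 ran from 9.22 through 12.3 to 13.6 and Ms4a1 from 5.31 through 10.8 to 13.3, so that both were bright in most tumours. Cd40, Ccr7, Cxcr5, Cd83 and Tnfrsf13c did not pass, with slopes from -0.15 to 0.02. The median slope of the list was -0.17 against 0.01 over all genes. Of 14 precursor B cell genes limma called 0 with Kcnk1 (3 at an unadjusted p under 0.05, median slope -0.03). Of 11 tested shared B lineage genes 1, the kinase Blk, fell (-0.35, limma adjusted p = 0.00507).

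Of 10 tested NF-kB genes, 6 fell with Kcnk1, where 3.94% of all genes did, and 0 rose, with a median slope of -0.14. Relb, a subunit of the non-canonical pathway, fell by 0.25 ± 0.04 (limma adjusted p = 0.000457), and its partner Nfkb2 by 0.16 ± 0.04 (adjusted p = 0.0093). The subunit Rel (-0.11), the feedback inhibitors Tnfaip3 (-0.23) and Nfkbie (-0.17), and Bcl3 (-0.15) fell too. Nfkbia (-0.08, adjusted p = 0.0658) and Icam1 (-0.11, adjusted p = 0.056) stood just short of the threshold. Of 17 Myc target genes 3 rose, where 5.15% of all genes did: the nucleolar genes Nop56 (0.06), Bop1 (0.09) and Gnl3 (0.05), and 0 fell. Without 1 tumour at a time, Gnl3 no longer passed in 15 of 32 fits and Nfkbie in 10. Of 4 tested germinal centre genes 1, Fas, fell (-0.12, limma adjusted p = 0.0304). Of 8 tested plasma cell genes 1, Mzb1, rose (0.16, adjusted p = 0.0247), where 9.09% of all genes were called in either direction.

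These Kcnk1 counts rest in part on a few tumours. Tumours 2 and 24, both low in Kcnk1 (4.32 and 4.82), had the highest T cell scores (2.08 and 2.80, where a score is the mean standardised value of a list's tested genes), mature B cell scores of 1.62 and 1.66 and NF-kB scores of 2.09 and 2.81, against medians of -0.20, -0.05 and -0.36. Without both, 211 genes rose and 192 fell, including 5 of the 12 mature B cell genes and 3 of the 10 NF-kB genes but 0 of the Myc targets. Without tumour 2 alone 367 rose and 272 fell, without tumour 24 alone 347 rose, and without tumour 14, 695 fell. Without the 11 tumours with high Bpifa2, 27 rose and 23 fell over the 21 left, among them 2 mature B cell genes and 1 NF-kB gene. With the precursor and mature B cell scores as covariates limma called 0 genes, and 1199 genes had an unadjusted p under 0.05; those scores are built in part from the genes that fell.

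Only single markers of other cells passed with Kcnk1, where 9.09% of all genes were called. Whether these lists hold more calls than that share was not tested. Of 8 tested T cell genes 1, Cd4, fell (-0.16, limma adjusted p = 0.0213), and the T cell score ran from -0.67 to 2.80 over the tumours, with Cd5, Cd8a and Cd8b1 dim on average. Of 11 macrophage genes Lyz2 fell (-0.20, adjusted p = 0.0333) and Mrc1 rose (0.25, adjusted p = 0.0323), with scores from -1.28 to 2.38. Of 11 stroma genes Col3a1 rose (0.26, adjusted p = 0.0214), with scores from -1.21 to 2.12. Of 13 salivary genes 1 rose, Bhlha15, a factor of secretory cells that plasma cells also use (0.39, adjusted p = 0.00377). In the 32 fits that left out 1 tumour, Lyz2 lost the call in 6, Mrc1 in 4, Cd4 in 2, Col3a1 in 1 and Bhlha15 in 0. Without tumours 2 and 24, 0 genes of the T cell, macrophage and stroma lists passed in limma (2297 of all genes had an unadjusted p under 0.05). Their part in the Kcnk1 result was not tested, and with the mean T cell, macrophage and stroma score as a covariate, 457 genes rose and 387 fell, among them the same number of mature B cell genes, 7, and 5 NF-kB genes.

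Of the 13 tested potassium channel genes and partners, limma called 0 with Kcnk1 (5 at an unadjusted p under 0.05), where 9.09% of all genes were called. Among the pore-domain relatives, Kcnk6 had a slope of 0.08 ± 0.03 (limma adjusted p = 0.0917), Kcnk5 0.09 ± 0.04 (adjusted p = 0.115) and Kcnk3 0.03 ± 0.02 (adjusted p = 0.163). The trafficking partner Arf6, with a median of 12.1, had a slope of -0.01. Kcnk2, Kcnk12 and Kcnk15 were dim. In the lists of the other members, 2 of 13 tested reelin pathway genes fell with Kcnk1, the receptor Lrp8 (-0.13, adjusted p = 0.0372) and Fyn (-0.14, adjusted p = 0.014). Lrp8 lost the call in 7 of the 32 fits that left out 1 tumour and in 6 other settings, and Fyn in 0 and 3. Of 13 tested spindle pole genes 1 rose, Nedd1, which recruits gamma-tubulin (0.05, adjusted p = 0.0217).

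**Figure D3:**
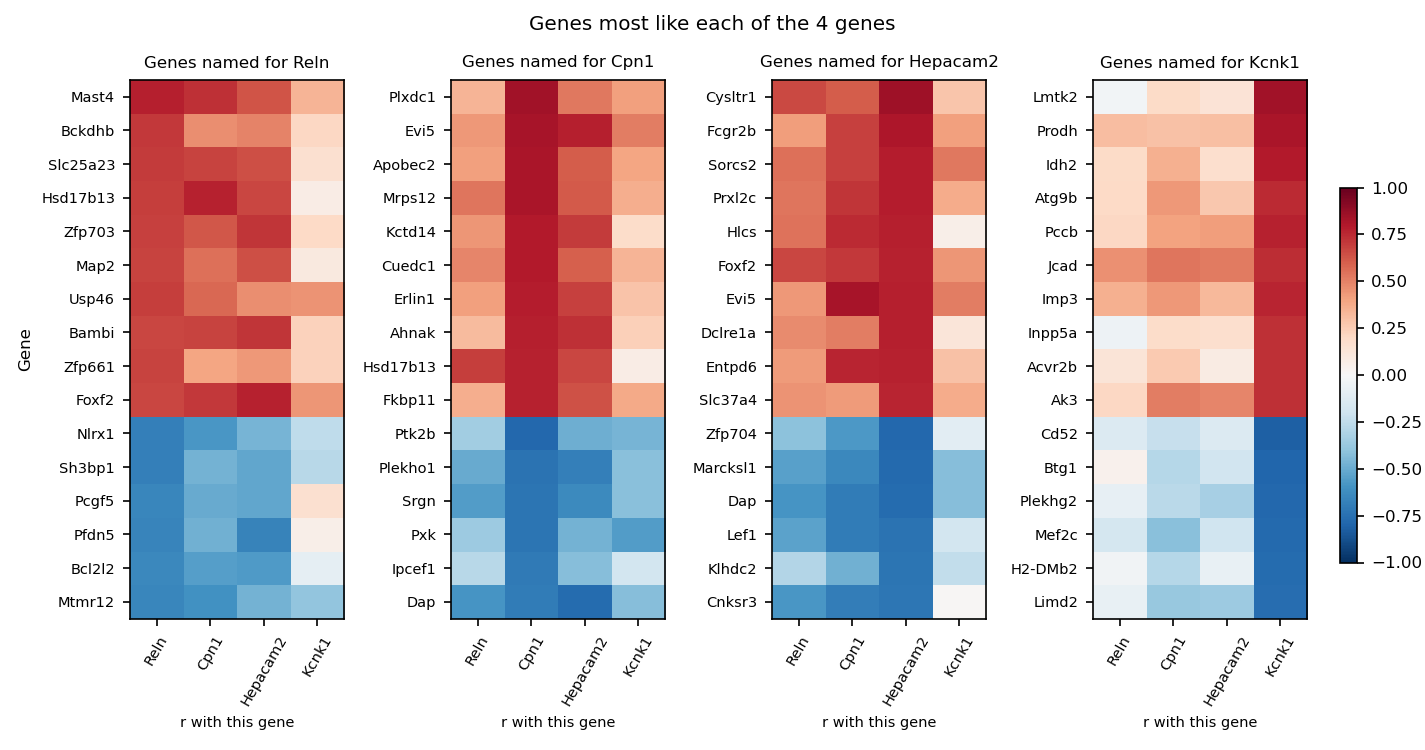
Pearson's r over 32 tumours between the 10 closest rising and 6 closest falling genes of each of the 4 genes (rows of each panel, by gene) and Reln, Cpn1, Hepacam2 and Kcnk1 (columns), from blue for -1 to red for 1. The rows were picked for the column of their own panel, so only the other columns carry information beyond the choice; Mast4 has r = 0.78 with Reln and Lmtk2 has r = 0.84 with Kcnk1.

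**Figure D4:**
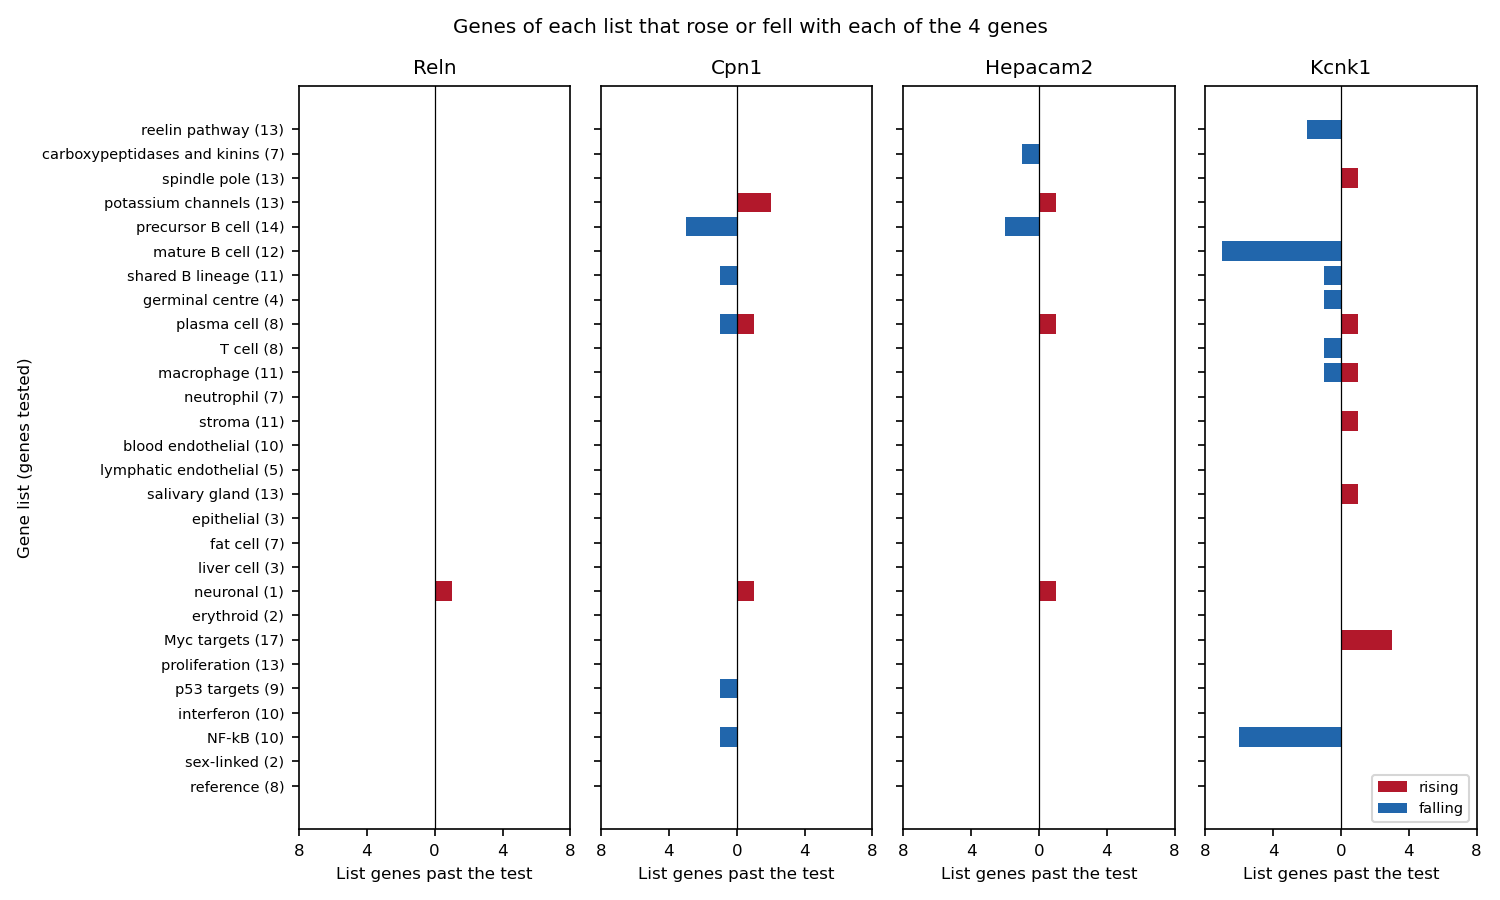
Number of genes in each of 28 lists (vertical axis, tested genes in brackets) that rose (red, to the right) or fell (blue, to the left) with Reln, Cpn1, Hepacam2 and Kcnk1 at a limma adjusted p under 0.05. The longest bars are the 7 mature B cell and 6 NF-kB genes that fell with Kcnk1; the Reln panel holds only Map2.

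The 11 tested shared B lineage genes stayed above the filter level of 5.78 in every tumour, some over a wide range. Cd79b ran from 11.1 to 12.6, Cd79a from 9.37 to 11.6 and Pax5 from 7.16 to 9.04 over the tumours. Ebf1 ran from 6.24 to 10.7 and Blk from 6.68 to 11.1. The lowest shared B lineage scores were -1.34 in tumour 24 and -1.07 in tumour 2, against a median of -0.08. Among epithelial, fat, neutrophil, endothelial, lymphatic, liver, red cell and sex-linked lists, with 39 tested genes, limma called 0 with any of the 4 genes. At an unadjusted p under 0.05 there were 1, 2, 3 and 4 of the 39 with Reln, Cpn1, Hepacam2 and Kcnk1. The tumours above and below the gap in Bpifa2 overlapped in all 4 genes: Reln had a median of 10.8 in the 11 above and 12.6 in the 21 below, Cpn1 5.62 and 8.80, Hepacam2 8.05 and 9.68, and Kcnk1 7.75 and 9.81. Of the other 21 of the 25 most variable genes, limma called 0 with Reln, Cpn1, Hepacam2 or Kcnk1 (2, 2, 2 and 0 at an unadjusted p under 0.05), and the smallest adjusted p was 0.0563, for Vpreb1 with Hepacam2.

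The nearest tested genes on the chromosome went with Cpn1 on both sides. Erlin1, the nearest tested gene on one side in the RefSeq gene order of chromosome 19, rose by 0.14 ± 0.02 per doubling of Cpn1 (limma adjusted p = 9.22e-05), and Dnmbp, the nearest on the other side, by 0.14 ± 0.04 (adjusted p = 0.0225). Erlin1 ran from 8.74 through 9.67 to 10.5 and Dnmbp from 5.14 through 6.62 to 7.96. The other 8 of the 10 nearest tested genes did not pass, among them Bloc1s2 with 0.07 (adjusted p = 0.0512). Over all genes, 5.36% were called with Cpn1. Across chromosome 19, 3.9% of 410 tested genes rose and 1.71% fell with Cpn1, close to the shares over all genes.

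Each of the other members had 1 neighbour that passed, of 10 tested for Reln, 7 for Hepacam2 and 10 for Kcnk1. Over all genes 0.312%, 2.34% and 9.09% were called in turn, so the count for Kcnk1 is close to that share. Orc5, a subunit of the origin recognition complex and the nearest tested gene on one side of Reln on chromosome 5, rose by 0.08 ± 0.02 (limma adjusted p = 0.0345) and lost the call in 8 of the 32 fits that left out 1 tumour. Samd9l, an interferon-induced gene nearest to Hepacam2 on chromosome 6, rose by 0.20 ± 0.06 (adjusted p = 0.0484) but no longer passed in 24 of the 32 fits that left out 1 tumour. Exoc8, the fifth tested gene from Kcnk1 on chromosome 8, rose by 0.07 ± 0.02 (adjusted p = 0.027), with 25 RefSeq genes between them. Of 723 tested genes on chromosome 5, 0.692% (5 genes) rose with Reln, against 0.232% of all genes. Of 574 on chromosome 6, 1.05% rose with Hepacam2, against 1.53% of all genes. Of 594 on chromosome 8, 3.87% rose with Kcnk1, against 5.15% of all genes.

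**Figure D5:**
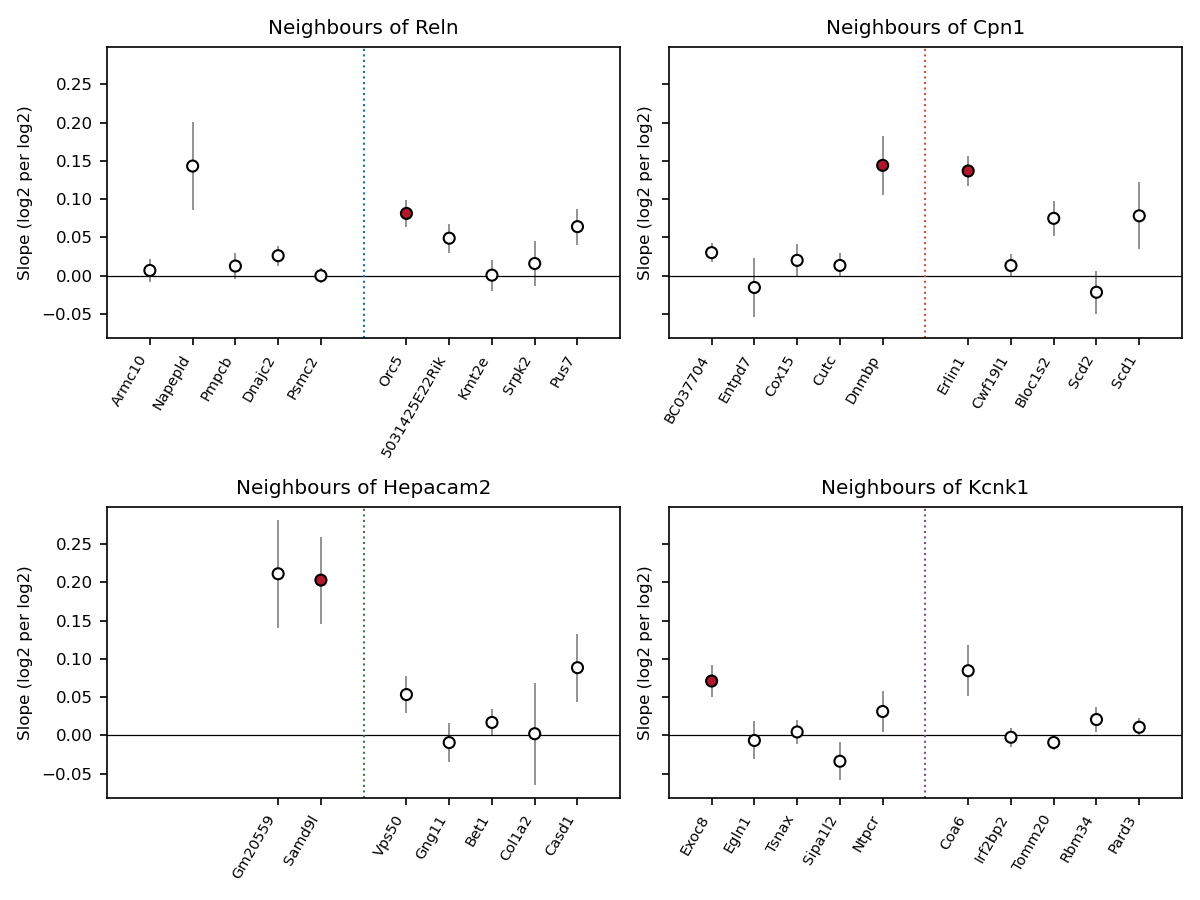
Slope (log2 units per doubling) of up to 5 nearest tested genes on each side of Reln, Cpn1, Hepacam2 and Kcnk1, in RefSeq gene order, with the dotted line at the gene itself. Bars are standard errors and filled points passed the limma test at an adjusted p under 0.05; the nearest genes on both sides of Cpn1, Dnmbp (0.14) and Erlin1 (0.14), are filled.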

How the data were processed

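Labelled cRNA from the total RNA of 32 tumours was read on 1 Affymetrix Mouse430_2 array each. The authors deposited log2 values for each probe set, which the submitters' processing notes credit to RMA and affy without a version. RMA gives the single probes of all arrays the same distribution before it sums them into probe sets, so a change common to most genes would not show. The probe set values themselves differ slightly in distribution between arrays. The number of arrays limits the precision. No batch is named in the labels, and 0 pairs of arrays were identical.

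The platform annotation names a single gene for 34958 of 45101 probe sets, several for 932 and no gene for 9211; only the first were named. Entrez identifiers of 34754 matched RefSeq (GRCm38.p6), which changed 0 symbols and gave the gene order and the promoters of all 4 genes. The array data name no genome build. Probe sets with a mean under the median of all probe set means (5.78) were left out as dim, and each gene kept its probe set with the highest mean.

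Slopes were fitted with limma 3.58.1 (lmFit, eBayes) in R 4.3.3 and tested at a Benjamini-Hochberg adjusted p under 0.05. The 6 pairs and 4 relations with RNA quality used two-sided permutation tests with 100000 resamples in Python 3.11.15 with scipy 1.17.1, numpy 2.4.6 and pandas 2.3.3; figures used matplotlib 3.10.9. The steps were tested on simulated data. Named genes were, for each of the 4, the 10 that rose and 6 that fell with the largest moderated t, list genes past the test, the 2 of a list with the largest t, the 5 nearest tested genes on each side, and genes shown as examples of dim or marker genes, which were chosen after their values were seen. The 4 genes and the 28 lists were chosen with earlier results of these data known. Alternatives were no filter or a stricter filter on dim probe sets, averaged probe sets, the other probe set of a gene, another scaling, ranks, a robust fit, covariates, and leaving out each tumour.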

Additional observations from a re-analysis of the deposited data

How the results depend on the processing

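The 10 relations among the 4 genes and with RNA quality kept their side of the threshold in every setting run for them. These were Spearman's rho and the salivary score as a covariate. The others left out the 2 farthest tumours, each tumour, tumours 2 and 24 or the 11 tumours above the Bpifa2 gap. No relation was run with the B cell scores. In limma, Reln on Cpn1 lost the call in 3 settings and in 2 fits without 1 tumour, and Reln on Hepacam2 in 2 such fits. Hepacam2 on Cpn1 and Cpn1 on Hepacam2 lost it in 1 setting each. Hepacam2 on Reln gained it in 5 settings and 4 such fits, and Cpn1 on Reln in 1 and 3. With each tumour left out in turn, r ran from 0.50 to 0.60 for Reln and Cpn1, from 0.51 to 0.61 for Reln and Hepacam2, and from 0.68 to 0.81 for Cpn1 and Hepacam2. None of the 4 levels was clustered, so no value within a cluster was run. No paired analysis was possible because the labels give 1 group.

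Counts of genes depend more on the setting; the cause was not tested except that fewer genes or tumours enter some fits. For Reln, 26 rising and 9 falling genes became 54 and 24 with RNA quality as a covariate, 17 and 3 with the T cell, macrophage and stroma score, 40 and 17 with Xist, 12 and 3 with the filter at the 75th percentile, 72 and 43 with the other probe set, 138 and 74 with ranks, 167 and 104 in the robust fit, and 190 and 116 without the tumours above the Bpifa2 gap. The rising count was 60 after the reference gene shift and 17 without tumours 2 and 24; the falling count was 24 with the mean of probe sets, 19 with the B cell scores and 17 after quantile normalization again. Without 1 tumour at a time Reln gave 14 to 71 rising and 3 to 42 falling genes; its rising counts moved by over 1.5 times without tumours 11, 17, 19, 22, 26, 2, 14, 27, 9, 8, 6, 29, 13, 25 or 5, left out 1 at a time, to 14, 14, 14, 14, 14, 16, 16, 17, 40, 41, 42, 43, 44, 60 and 71 in turn, and its falling counts moved by over 1.5 times without tumours 17, 19, 22, 26, 13, 8, 18, 9, 15, 29, 6, 25 or 5, left out 1 at a time, to 3, 5, 5, 5, 16, 18, 23, 24, 25, 25, 27, 32 and 42 in turn. For Cpn1, 405 rising and 197 falling genes became 73 and 21 with the B cell scores and 975 and 486 in the robust fit; the rising count was 242 with the other probe set, and the falling count 311 with the T cell, macrophage and stroma score, 128 with the filter at the 75th percentile and 489 without the tumours above the Bpifa2 gap. Leaving out 1 tumour gave 298 to 706 and 152 to 338, both highest without tumour 30. For Hepacam2, 172 and 91 became 47 and 22 with the B cell scores and 508 and 329 in the robust fit; 155 fell with the T cell, macrophage and stroma score and 163 without tumours 2 and 24, and leaving out 1 tumour gave 137 to 254 and 68 to 154, the highest without tumour 29. For Kcnk1, 578 and 442 became 982 and 719 in the robust fit, 211 and 192 without tumours 2 and 24, 27 and 23 without the tumours above the Bpifa2 gap, and 0 and 0 with the B cell scores (1199 genes at an unadjusted p under 0.05); leaving out 1 tumour gave 347 to 867 and 272 to 695. In that last covariate fit the slopes on Kcnk1 of Fas (0.016), Gnl3 (-0.0069) and Nfkbie (0.033) turned sign without passing the test, and the scores hold some of the genes tested. The B cell scores, the fits without tumours 2 and 24, and the relations without the tumours above the Bpifa2 gap were chosen after seeing the data. Named slopes that kept their direction but no longer passed numbered 29 of 47 on Kcnk1, 4 of 30 on Cpn1, 4 of 25 on Hepacam2 and 2 of 20 on Reln without the tumours above the Bpifa2 gap. Without tumours 2 and 24 they numbered 17, 4, 0 and 4 in turn, and with the B cell scores 41, 14, 10 and 0.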
